A study of Mus musculus with 8 samples.

Results

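The 37 genes described here encode the lysosomal proton pump and its accessory subunits (18 genes), lysosomal membrane proteins (4), lysosomal hydrolases (10), activators of sphingolipid breakdown (2) and the MiT/TFE transcription factors Tfeb, Tfe3 and Mitf (3). They were listed by name and role, with no threshold on their values, and each of the 37 matched 1 gene identifier among the 27679 genes of the count table. All 37 were among the 13845 genes with enough counts to be tested. Total counts per gene over the 8 libraries ran from 2461 for Sgsh to 897525 for Psap.

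The study compared mouse megakaryocytes, the marrow cells that release platelets, grown in a soft hydrogel with the same kind of cells grown in liquid medium. Lineage-negative bone marrow cells from wild-type C57BL/6 mice, obtained by magnetic depletion, were cultured for 3 days in 2% methylcellulose, a gel whose Young modulus was 30 to 60 Pa (hydrogel, 4 libraries), or in liquid medium (liquid, 4 libraries). In both cultures the large, mature cells were then enriched on a gradient of 2 to 4% bovine serum albumin, and polyA RNA was sequenced from 150 ng of total RNA. All libraries shared this genotype, tissue, time and enrichment, and the culture milieu was the only labelled difference.

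Lysosomes are acidic organelles in which hydrolases degrade proteins, lipids and glycans. The vacuolar ATPase acidifies them: its cytosolic V1 part hydrolyses ATP and turns a rotor that carries protons through the membrane-embedded V0 part. Transcription factors of the MiT/TFE family, of which TFEB is the best studied, bind E-box motifs in the promoters of many lysosomal genes, and the kinase complex mTORC1 at the lysosome holds them in the cytosol when nutrients are ample. Megakaryocytes form lysosomes that pass into platelets, and macrophages are rich in lysosomes.

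The E-box CACGTG and its longer form GTCACGTG, which overlaps it, were searched on both strands of the RefSeq promoters (mouse build GRCm38.p6, 250 bases before to 50 bases after a gene's start). A promoter was found for 30 of the 37 genes. The E-box was present for 11 of the 30, against 8.09% of the 27025 genes of the promoter table. The 8-letter form was present for 8 of the 30, against 2.55% of all genes. The 8 were the pump genes Atp6v0b and Atp6v0d1, the membrane protein genes Lamp1 and Mcoln1, and the hydrolase genes Gla, Glb1, Naglu and Sgsh. Atp6v0e, Atp6v1a and Gaa had the 6-letter form alone. The windows of Psap, Gm2a, Tcirg1, Tfeb, Tfe3 and Mitf held neither. A match describes the letters in these windows and was not tested as a binding site.

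Promoters of 6 of these genes are shown because they carry the 8-letter form and their transcripts were higher in hydrogel. Each is written 5′ to 3′ on the strand of its gene, with matches in capitals (8 letters where the longer form matched, 6 letters where only the E-box did).
Mcoln1, chr8:3500269-3500568, plus strand: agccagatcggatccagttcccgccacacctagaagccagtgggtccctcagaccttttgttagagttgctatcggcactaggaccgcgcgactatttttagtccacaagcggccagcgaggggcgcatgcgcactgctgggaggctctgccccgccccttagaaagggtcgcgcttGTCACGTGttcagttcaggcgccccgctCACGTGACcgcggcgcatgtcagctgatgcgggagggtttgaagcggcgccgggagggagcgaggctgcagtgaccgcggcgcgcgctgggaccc
Lamp1, chr8:13158911-13159210, plus strand: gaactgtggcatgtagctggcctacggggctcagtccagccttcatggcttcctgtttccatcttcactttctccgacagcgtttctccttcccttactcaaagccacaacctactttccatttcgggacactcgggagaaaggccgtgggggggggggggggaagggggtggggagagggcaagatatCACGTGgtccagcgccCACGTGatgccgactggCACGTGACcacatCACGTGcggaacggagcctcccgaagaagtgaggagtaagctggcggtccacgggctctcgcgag
Gla, chrX:134600956-134601255, minus strand: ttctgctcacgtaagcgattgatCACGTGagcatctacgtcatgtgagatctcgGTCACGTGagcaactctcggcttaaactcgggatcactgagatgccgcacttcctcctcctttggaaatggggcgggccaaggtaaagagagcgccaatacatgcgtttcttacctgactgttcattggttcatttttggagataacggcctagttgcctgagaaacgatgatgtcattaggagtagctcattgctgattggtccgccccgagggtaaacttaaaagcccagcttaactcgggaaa
Naglu, chr11:101069844-101070143, plus strand: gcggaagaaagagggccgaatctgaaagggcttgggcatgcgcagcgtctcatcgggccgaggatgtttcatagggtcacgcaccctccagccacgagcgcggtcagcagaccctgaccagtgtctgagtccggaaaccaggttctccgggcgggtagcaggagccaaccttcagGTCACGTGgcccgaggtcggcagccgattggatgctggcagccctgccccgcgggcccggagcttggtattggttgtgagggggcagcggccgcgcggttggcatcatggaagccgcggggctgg
Sgsh, chr11:119355461-119355760, minus strand: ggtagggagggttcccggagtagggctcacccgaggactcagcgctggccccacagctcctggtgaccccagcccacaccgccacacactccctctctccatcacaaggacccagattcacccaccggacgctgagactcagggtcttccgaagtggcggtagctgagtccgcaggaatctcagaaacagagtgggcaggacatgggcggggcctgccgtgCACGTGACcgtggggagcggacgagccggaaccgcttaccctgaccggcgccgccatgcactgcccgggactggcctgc
Atp6v0b, chr4:117887280-117887579, minus strand: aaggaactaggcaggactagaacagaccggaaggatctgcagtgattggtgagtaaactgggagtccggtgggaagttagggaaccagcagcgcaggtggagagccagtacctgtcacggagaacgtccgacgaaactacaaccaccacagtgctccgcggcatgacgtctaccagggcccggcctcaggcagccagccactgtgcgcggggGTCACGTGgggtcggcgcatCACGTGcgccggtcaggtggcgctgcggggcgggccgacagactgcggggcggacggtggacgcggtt
Lamp1 had E-boxes starting 61, 45, 28 and 15 bases before the start, and Mcoln1 had 2, at 71 and 45 bases before it. Those of Atp6v0b lay 36 and 18 bases before the start, that of Naglu 73 bases and that of Sgsh 29 bases before it, and those of Gla farther away, at 227 and 194 bases.

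Library totals were 27012172 to 37059314 counts in hydrogel and 28825468 to 49281611 in liquid. Megakaryocyte markers were abundant in every library, with summed levels of 33080 to 49060 CPM (counts scaled to the same library size) in hydrogel and 38080 to 65660 CPM in liquid, and 10 of 15 were lower in hydrogel (4 to 14 when any 1 library was left out). Macrophage markers summed to 2719 to 5475 CPM in hydrogel and 850 to 1726 CPM in liquid. Of 17 tested macrophage markers, 12 were higher in hydrogel (10 to 15 when any 1 library was left out), and none of the 19 was at 0 in all libraries. Of the other marrow lineages, 5 of 6 tested mast cell and basophil markers were lower in hydrogel (0 to 6 when any 1 library was left out), as were 4 of 5 dendritic cell markers and 2 of 5 erythroid markers. The most abundant dendritic cell marker, H2-Ab1, was not lower, with a log2 fold change (hydrogel over liquid) of 1.05 (edgeR adjusted p = 0.0618). The summed dendritic cell markers were higher in every hydrogel library than in liquid 1, 3 and 4, and below liquid 2. Of 8 neutrophil markers, 2 were higher and 0 lower. The log2 fold change was positive for 3 of these 8, with a median of −0.45. It was positive for 2 of the 5 erythroid markers, with a median of −0.16. Hydrogel 1 and liquid 2 stood apart from the rest of their culture. Principal component 1 (65.1% of variance) placed hydrogel 1 at −16.8, where hydrogel 2 to 4 had −52.3 to −46.0, and liquid 2 at 17.0, where liquid 1, 3 and 4 had 47.4 to 53.1. Counts of lysosomal genes without both libraries are given where they differ from those with all 8.

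Most of the lysosomal genes had higher transcript levels in hydrogel. With edgeR's quasi-likelihood test and Benjamini-Hochberg adjustment over all tested genes at 0.05, 25 of the 37 were higher and 1, Atp6v0a2, was lower, where 15.1% of all tested genes were higher and 14.1% lower. The median log2 fold change (hydrogel over liquid) was 0.55 over the 37 genes and −0.01 over all tested genes. In 23 of the 37, every hydrogel library lay above every liquid library, as it did for 14.6% of all tested genes. The 25 were raised 1.23- to 7.09-fold. In bulk RNA, fewer cells of a type and less RNA per cell cannot be told apart, and neither can a change in the share of macrophages and a change within megakaryocytes. Without hydrogel 1 and liquid 2, which widens the difference by its construction, 28 of the 37 were higher and 3 lower, where 21.6% of all genes were higher and 19% lower. The V0 genes called lower then numbered 3 of 8, the V1 genes called higher 6 of 8 and the accessory genes called higher 2 of 2, against 1, 4 and 1 with all libraries; the counts of the membrane, hydrolase, activator and MiT/TFE genes were the same.

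Of the 18 pump genes, 9 were higher and 1 lower, with a median log2 fold change of 0.29. Of the remaining 19, 16 were higher and 0 lower, with a median of 0.65. The difference between these groups was not tested.

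**Figure D1:**
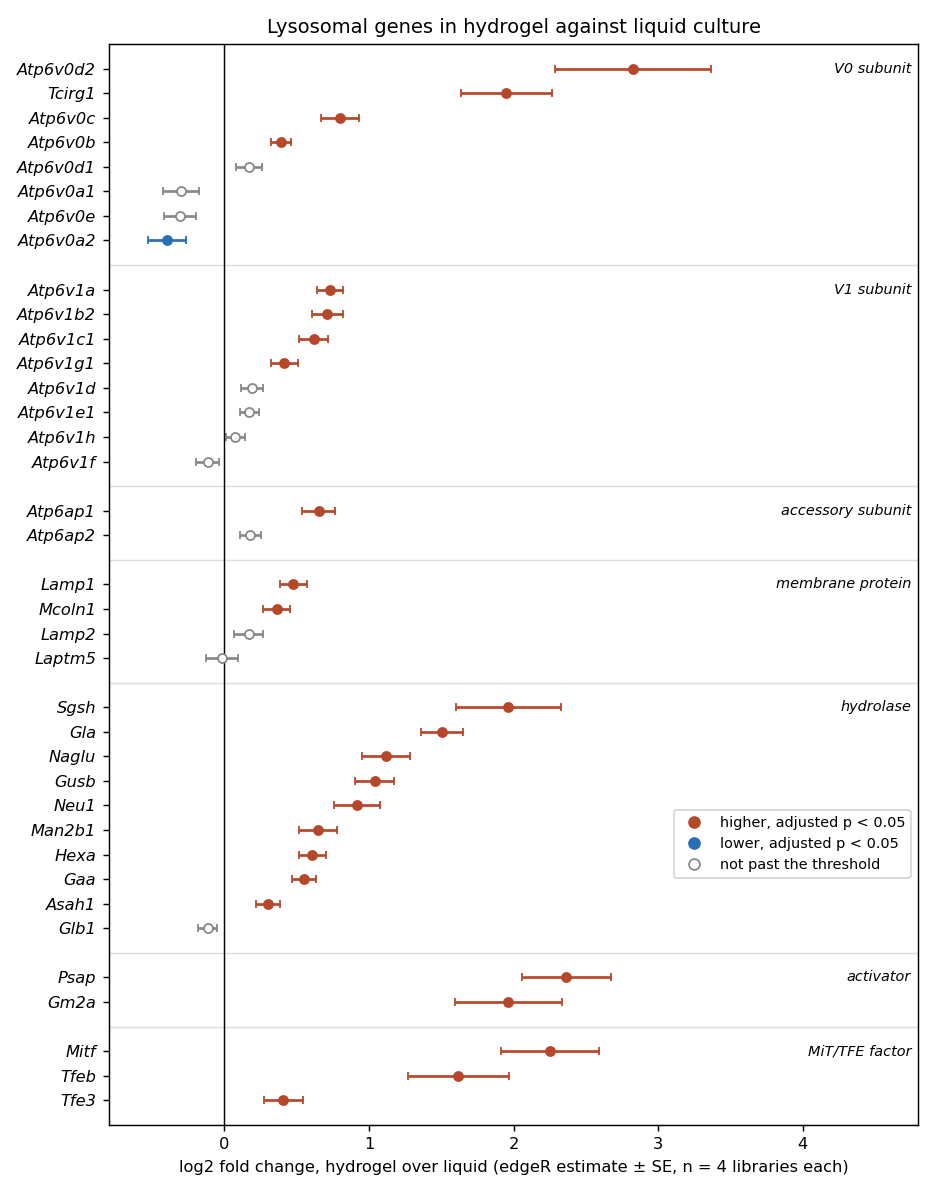
Log2 fold change of each of the 37 genes, hydrogel over liquid, from edgeR's quasi-likelihood fit (point) with its SE (bar), n = 4 libraries in each culture, grouped by role. Filled points passed the adjusted p of 0.05: 25 lie right of 0 and Atp6v0a2 alone lies left of it.

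The V0 part of the pump showed the widest range. Atp6v0d2, an alternative d subunit known from osteoclasts and macrophages, had 27.9, 83.2, 69.7 and 47.7 CPM in hydrogel 1 to 4, against 2.25, 17.5, 6.60 and 6.05 CPM in liquid 1 to 4. Every hydrogel library was above every liquid one, with hydrogel 1 the lowest and liquid 2 the highest of its group. The log2 fold change was 2.83 ± 0.54 (SE; 7.09-fold, adjusted p = 0.00386), and 3.50 without liquid 2. Tcirg1, the a subunit isoform of the osteoclast pump, had 64.6, 146, 146 and 118 CPM in hydrogel, against 22.9, 50.4, 23.4 and 26.2 CPM in liquid. Its groups did not overlap, and hydrogel 1 and liquid 2 were again nearest to each other (log2 fold change 1.95 ± 0.31, 3.86-fold, adjusted p = 0.00165).

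The proteolipid genes, whose products form the rotor ring, were higher by smaller factors. Atp6v0c had 49.3, 68.8, 70.6 and 50.6 CPM in hydrogel, against 33.1, 31.0, 36.6 and 36.7 CPM in liquid. Its groups did not overlap (log2 fold change 0.80 ± 0.13, 1.74-fold, adjusted p = 0.0017), and its 2 pseudogenes in the table had 8 counts each. Atp6v0b had 100, 115, 118 and 118 CPM in hydrogel, against 84.7, 90.5, 82.7 and 85.7 CPM in liquid (0.39 ± 0.07, 1.31-fold, adjusted p = 0.0024), also without overlap.

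None of the other V0 genes was called higher. Atp6v0a2, the a subunit isoform of the Golgi and endosomes, had 381, 298, 316 and 285 CPM in hydrogel, against 421, 338, 504 and 420 CPM in liquid. The groups overlapped, since hydrogel 1 was above liquid 2 (log2 fold change −0.40 ± 0.13, adjusted p = 0.0439), and the call was lost without hydrogel 2, 3 or 4 or liquid 1, 3 or 4. Atp6v0a1, its paralog best known from neurons, had 373, 293, 351 and 285 CPM in hydrogel, against 397, 331, 474 and 400 CPM in liquid, with overlap (−0.30 ± 0.12, adjusted p = 0.098). Atp6v0e, the small e subunit, had 103, 103, 122 and 114 CPM in hydrogel, against 145, 109, 134 and 160 CPM in liquid, where only liquid 2 fell within the hydrogel range (−0.31 ± 0.11, adjusted p = 0.0637). Without hydrogel 1 and liquid 2, Atp6v0a1 and Atp6v0e were called lower as well. Atp6v0d1, the ubiquitous d subunit, had 187 to 221 CPM in hydrogel and 153 to 196 CPM in liquid, which overlapped (0.17 ± 0.09, adjusted p = 0.192).

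The make-up of the a and d subunit transcripts differed between the cultures. Per kilobase of annotated exon, Tcirg1 made up 11.01, 26.3, 24.0 and 23.0% of the transcripts of the 3 tested a isoforms in hydrogel, against 3.88, 9.80, 3.34 and 4.41% in liquid. The means were 21.1 ± 6.84% in hydrogel and 5.36 ± 3.00% in liquid (SD, n = 4 each), with no overlap and a difference of 15.7 percentage points. Atp6v0d2 made up 8.96, 20.8, 17.2 and 13.6% of the d subunit transcripts in hydrogel, against 0.783, 7.01, 2.24 and 2.00% in liquid, again without overlap (15.2 ± 5.07% and 3.01 ± 2.74%, difference 12.2 points). A two-sided exact permutation test over libraries gave p = 0.0286 for each share, also after adjustment over the 2 shares, which is the smallest p that 4 against 4 allows. Atp6v0a1, Atp6v0a2 and Atp6v0d1 remained the more abundant isoforms in every library. The sizes of the shares depend on the exon lengths used. These were 4603 bases for Tcirg1, 6556 for Atp6v0a1 and 6726 for Atp6v0a2, and 2716 for Atp6v0d2 against 1793 for Atp6v0d1. Of the osteoclast markers, Acp5 and Ctsk were higher and Oscar and Mmp9 lower among 6 tested (Mmp9 named after its values were seen). When any 1 library was left out, 2 were higher and 0 to 2 lower. Without hydrogel 1 and liquid 2, 2 were higher and 1 lower. Mmp9 in liquid 2 was 5.06 times the mean of liquid 1, 3 and 4. The higher ones had 1.89 to 3.50 CPM (Acp5) and 4.19 to 10.4 CPM (Ctsk) in hydrogel, against 0.321 to 0.953 CPM and 0.880 to 1.61 CPM in liquid. The summed level of the osteoclast markers was 115 to 138 CPM in hydrogel and 95.7 to 142 CPM in liquid, most of it Nfatc1 (105 to 122 CPM in hydrogel, 90.1 to 135 CPM in liquid).

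**Figure D2:**
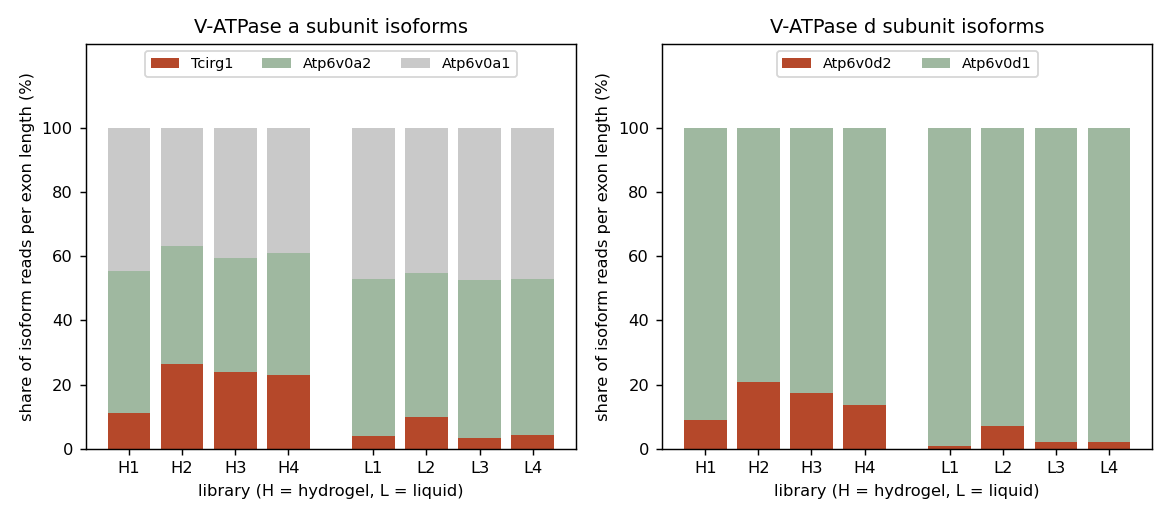
Share (%) of each isoform in the transcripts of the V-ATPase a subunit (left) and d subunit (right) in each library, after division by annotated exon length; hydrogel libraries are left of liquid ones. The Tcirg1 and Atp6v0d2 shares (bottom segments) are larger in each hydrogel library than in any liquid library, and hydrogel 1 and liquid 2 are closest.

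In the V1 part, 4 of 8 genes were higher and 0 lower. Atp6v1a, the catalytic subunit, had 352, 435, 467 and 402 CPM in hydrogel, against 239, 243, 254 and 262 CPM in liquid. The groups were far apart relative to their spread (log2 fold change 0.73 ± 0.09, 1.66-fold, adjusted p = 0.000598). Atp6v1b2, the nucleotide-binding partner of the catalytic subunit, had 255 to 358 CPM in hydrogel and 188 to 213 CPM in liquid (1.64-fold, adjusted p = 0.00124). Atp6v1c1, of the stalk that links V1 to V0, had 108 to 156 CPM in hydrogel and 82.6 to 90.9 CPM in liquid (1.53-fold, adjusted p = 0.00185). Atp6v1g1, a peripheral stalk subunit, had 31.0 to 41.1 CPM in hydrogel and 25.8 to 30.0 CPM in liquid (1.33-fold, adjusted p = 0.00998). These 4 genes did not overlap between the cultures.

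The remaining V1 genes overlapped between the cultures and did not pass. Atp6v1d, of the central shaft, had 71.6, 77.8, 91.6 and 80.2 CPM in hydrogel, against 70.2, 67.0, 71.6 and 72.3 CPM in liquid (0.19 ± 0.08, adjusted p = 0.0923). Atp6v1e1, of the peripheral stalk, had 98.3 to 114 CPM in hydrogel and 89.9 to 99.9 CPM in liquid (0.17 ± 0.06, adjusted p = 0.0694). For both, only hydrogel 1 fell within the liquid range, and without hydrogel 1 both were called higher. Atp6v1h, a regulatory subunit, had 106 to 115 CPM in hydrogel and 94.4 to 110 CPM in liquid (0.07 ± 0.07, adjusted p = 0.435). Atp6v1f, also of the shaft, had 41.3 to 49.6 CPM in hydrogel and 46.6 to 53.8 CPM in liquid (−0.12 ± 0.08, adjusted p = 0.292).

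Of the accessory subunits, Atp6ap1, which aids V0 assembly, had 140, 186, 212 and 193 CPM in hydrogel, against 112, 124, 112 and 118 CPM in liquid. Its groups did not overlap (0.65 ± 0.11, 1.57-fold, adjusted p = 0.00243). Atp6ap2, the prorenin receptor, had 116, 130, 137 and 133 CPM in hydrogel, against 108, 120, 108 and 118 CPM in liquid, with overlap at hydrogel 1 (0.18 ± 0.07, adjusted p = 0.0818), and it was called higher without that library.

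Of the 4 membrane protein genes, 2 were higher and 0 lower. Lamp1, a major glycoprotein of the lysosomal membrane, had 907, 1041, 1146 and 1063 CPM in hydrogel, against 763, 693, 764 and 770 CPM in liquid. Its groups did not overlap (0.47 ± 0.09, 1.39-fold, adjusted p = 0.00456); the opposite-strand gene Grtp1 overlaps 249 of its exon bases and had 13784 counts, against 239391 for Lamp1. Lamp2, its paralog, had 381, 404, 466 and 432 CPM in hydrogel, against 358, 323, 388 and 429 CPM in liquid, with overlap (0.17 ± 0.10, adjusted p = 0.25). Mcoln1, the calcium channel that signals to TFEB, had 32.2, 38.9, 37.1 and 34.8 CPM in hydrogel, against 24.1, 29.1, 29.4 and 28.8 CPM in liquid (0.36 ± 0.09, 1.28-fold, adjusted p = 0.0151). It did not overlap, and lost its call without hydrogel 2. Laptm5, a lysosomal protein of blood cells, had 1283, 1114, 1235 and 1120 CPM in hydrogel, against 1274, 995, 1254 and 1293 CPM in liquid, a log2 fold change of −0.02 ± 0.11 (adjusted p = 0.918).

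Hydrolases rose almost throughout: 9 of 10 were higher, 0 lower, with a median log2 fold change of 0.78. The highest fold was that of Sgsh, the sulfamidase of heparan sulfate breakdown, with 7.86, 16.9, 22.0 and 15.3 CPM in hydrogel, against 3.34, 6.97, 2.88 and 2.83 CPM in liquid. Hydrogel 1 and liquid 2 lay close together but did not overlap (1.96 ± 0.36, 3.90-fold, adjusted p = 0.00328). Naglu, which acts in the same pathway, had 31.0, 54.7, 52.8 and 43.4 CPM in hydrogel, against 19.8, 23.8, 21.6 and 18.5 CPM in liquid, also without overlap (1.12 ± 0.17, 2.17-fold, adjusted p = 0.00121).

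Gla, the α-galactosidase that clears globotriaosylceramide, had the smallest adjusted p of the 37 genes. It had 52.1, 78.2, 87.9 and 68.3 CPM in hydrogel, against 23.0, 28.3, 25.8 and 23.8 CPM in liquid. The liquid libraries lay close together and far below every hydrogel library (1.50 ± 0.15, 2.84-fold, adjusted p = 0.000238). Gusb, the β-glucuronidase, had 155 to 252 CPM in hydrogel and 92.6 to 115 CPM in liquid (2.05-fold, adjusted p = 0.000705). Neu1, the sialidase, had 35.7 to 55.4 CPM in hydrogel and 21.7 to 32.3 CPM in liquid (1.89-fold, adjusted p = 0.00238). Neither overlapped between the cultures.

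Hexa, the α subunit of β-hexosaminidase, had 526, 529, 609 and 535 CPM in hydrogel, against 376, 313, 396 and 358 CPM in liquid. It did not overlap (0.61 ± 0.09, 1.52-fold, adjusted p = 0.00124). Man2b1, the lysosomal α-mannosidase, had 169 to 263 CPM in hydrogel and 130 to 163 CPM in liquid (1.57-fold, adjusted p = 0.00581). Gaa, which breaks down glycogen, had 95.9 to 116 CPM in hydrogel and 66.5 to 81.4 CPM in liquid (1.46-fold, adjusted p = 0.00117). Asah1, the acid ceramidase, had 141, 166, 185 and 160 CPM in hydrogel, against 125, 131, 135 and 139 CPM in liquid. It did not overlap (0.30 ± 0.08, 1.23-fold, adjusted p = 0.0233), but its call was lost without hydrogel 2, 3 or 4 or liquid 1. Glb1, the lysosomal β-galactosidase, was the exception, with 111, 100, 105 and 102 CPM in hydrogel, against 122, 102, 114 and 115 CPM in liquid. These values overlapped (−0.12 ± 0.07, adjusted p = 0.227), and Glb1 shares exons on its own strand with Tmppe.

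The activators, small proteins that present sphingolipids to hydrolases, had large differences. Psap, which encodes the precursor of the saposins, had 3382, 6754, 7753 and 5922 CPM in hydrogel, against 907, 1813, 898 and 1009 CPM in liquid. The means were 5953 ± 1870 CPM in hydrogel and 1157 ± 441 CPM in liquid (SD, n = 4 each). The lowest hydrogel library, hydrogel 1, still stood above the highest liquid library, liquid 2 (2.36 ± 0.31, 5.15-fold, adjusted p = 0.000683). Per kilobase of exon, Psap was the most abundant of the 37 genes, with 2169 ± 682 RPKM in hydrogel and 422 ± 161 RPKM in liquid, followed by Lamp1 with 388 ± 37.1 RPKM in hydrogel and Laptm5 with 318 ± 36.99 RPKM in liquid. Gm2a, the activator of ganglioside GM2 breakdown by β-hexosaminidase, had 80.04, 158, 178 and 151 CPM in hydrogel, against 28.8, 67.5, 19.6 and 30.0 CPM in liquid, without overlap (1.96 ± 0.37, 3.90-fold, adjusted p = 0.00366).

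All 3 MiT/TFE genes were higher in hydrogel, at low levels of 2.73 to 5.42 RPKM in hydrogel and 0.577 to 4.09 RPKM in liquid. Mitf, first known from melanocytes and osteoclasts, had 9.51, 17.3, 23.4 and 17.5 CPM in hydrogel, against 2.66, 5.79, 2.11 and 3.73 CPM in liquid. It was the only one without overlap (2.25 ± 0.34, 4.76-fold, adjusted p = 0.00127). Tfeb had 9.15, 21.5, 24.6 and 20.5 CPM in hydrogel, against 4.85, 10.6, 4.86 and 4.49 CPM in liquid. Here hydrogel 1 was below liquid 2, so the groups overlapped (1.62 ± 0.35, 3.07-fold, adjusted p = 0.00711), and the log2 fold change was 2.24 without both libraries. Tfe3 had 38.2, 51.9, 56.4 and 54.3 CPM in hydrogel, against 33.4, 45.9, 34.9 and 37.2 CPM in liquid, with overlap (0.41 ± 0.14, 1.33-fold, adjusted p = 0.0484). Its call was lost without hydrogel 2, 3 or 4 or liquid 1, 3 or 4, and in limma-voom (adjusted p = 0.0521). Transcript levels do not report where these factors are in the cell.

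**Figure D3:**
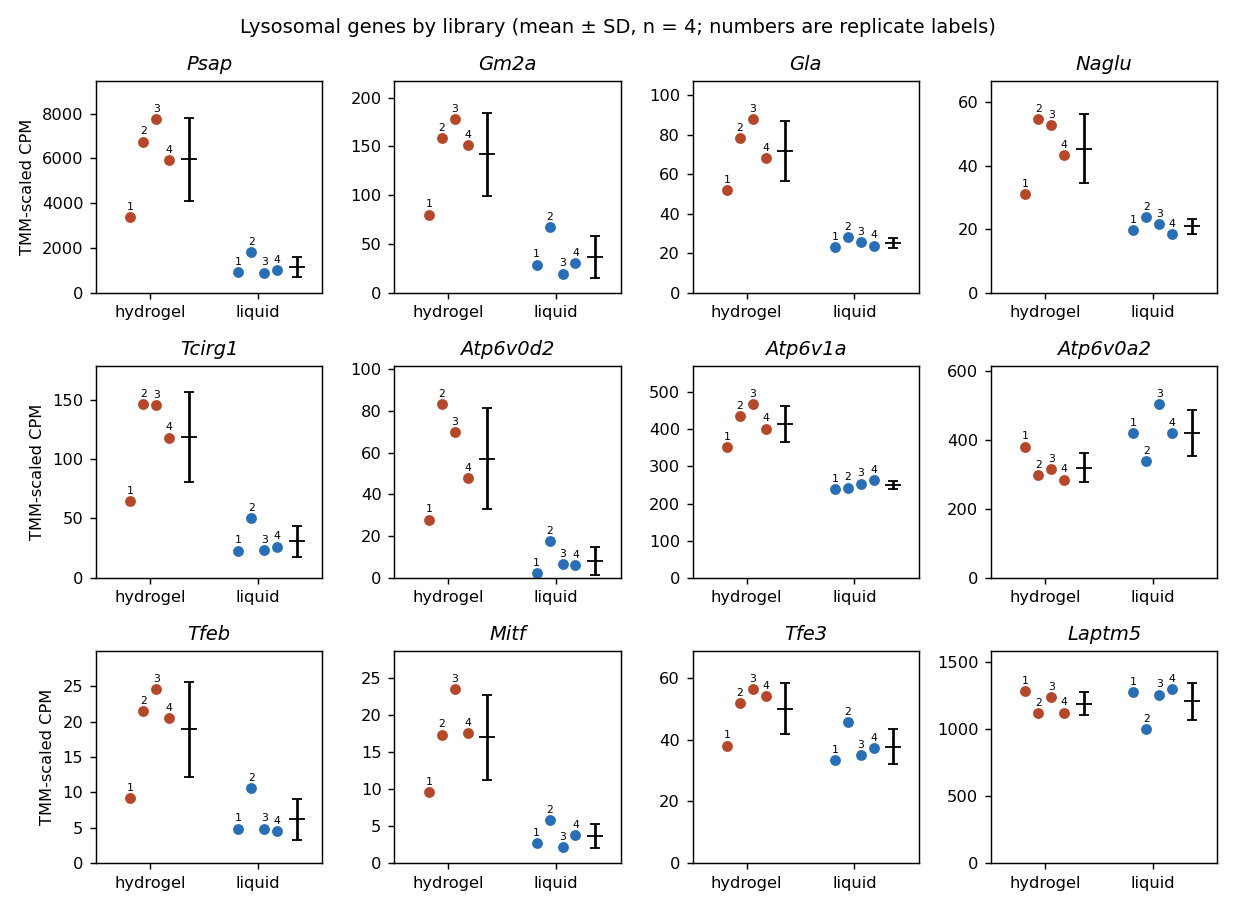
TMM-scaled CPM of 12 of the genes in each library (points, numbered by replicate) with the mean ± SD (n = 4), hydrogel left of liquid, axes from 0. Psap, Gm2a, Gla, Naglu, Tcirg1, Atp6v0d2, Atp6v1a and Mitf do not overlap between the cultures, while Tfeb and Tfe3 meet at hydrogel 1 and liquid 2, Atp6v0a2 is lower with overlap and Laptm5 is level.

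Genes rose both with and without the 8-letter motif in the promoter window. Of the 8 with it, 6 were higher, with a median log2 fold change of 0.43. Of the 22 without it, 14 were higher, with a median of 0.63. In both groups 0 were lower, where 15.1% of all tested genes were higher and 14.1% lower. Without hydrogel 1 and liquid 2, Atp6v1d, Atp6v1e1 and Atp6ap2 were also called higher and Atp6v0a1 and Atp6v0e lower. All of these lacked the 8-letter form, and 21.6% of all tested genes were then higher and 19% lower. The difference between the groups was not tested. Glb1 and Atp6v0d1 held the motif and did not pass, whereas Psap, Gm2a, Tcirg1 and Mitf rose without a match in the window.

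Other genes of the same pathways were counted from lists of known function, beside 15.1% higher and 14.1% lower among all tested genes. Among 21 other lysosomal hydrolases, 13 were higher and 0 lower, including Hgsnat of heparan sulfate breakdown (1.90-fold, adjusted p = 0.000238), the galactosylceramidase Galc (2.01-fold), the acid phosphatase Acp2 (1.91-fold) and the phospholipase Pla2g15 (1.41-fold). Among 21 other membrane and transport genes, 14 were higher and 2 lower. The chloride-proton exchanger Clcn7, which supports acidification, was 2.31-fold higher, Cln8, which carries enzymes out of the endoplasmic reticulum, 2.96-fold, the cholesterol exporter Npc1 2.57-fold and the tetraspanin Cd63 1.68-fold. The 2 lower genes, named after their values were seen, were Laptm4a (log2 fold change −0.36) and Ostm1, the β subunit of Clcn7 (−0.49). In a list of genes for the sorting of lysosomal enzymes, 6 of 12 were higher and 0 lower (4 to 6 and 0 to 1 when any 1 library was left out). Among the higher were Grn (2.24-fold) and Igf2r, a mannose 6-phosphate receptor (2.09-fold), while the receptor gene M6pr was not called. Without hydrogel 1 and liquid 2, 1 of the other hydrolases and 2 of the sorting genes were called lower, beside 19% of all tested genes.

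Of 7 tested genes for pump assembly, including those of RAVE, which joins V1 to V0, 2 were higher and 0 lower. The 2 were Dmxl2 (1.42-fold, adjusted p = 0.0138) and Wdr7 (1.19-fold, adjusted p = 0.0242). Without hydrogel 1 and liquid 2, 6 of the 7 were higher, beside 21.6% of all tested genes. Single omissions gave 1 to 4, Wdr7 losing its call without hydrogel 2, hydrogel 3 or liquid 1. The alternative subunit gene Atp6v1g2, known from neurons, was lower at 0.766 to 0.844 CPM in hydrogel, against 1.32 to 1.94 CPM in liquid (log2 fold change −0.90 ± 0.22, adjusted p = 0.0132), a call lost without hydrogel 1 and liquid 2 (adjusted p = 0.0552). The kidney isoforms Atp6v0a4 and Atp6v1b1 had 17 and 1 counts over all libraries and were not tested.

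A list built around the control of TFEB by mTORC1 and folliculin, which also held Tfec and Ppp3cb, had 6 of 18 genes higher and 4 lower. Of all tested genes, 15.1% were higher and 14.1% lower. The median log2 fold change of the list was 0.04. The largest rise was that of Rragd, a Rag GTPase that presents TFEB and TFE3 to mTORC1, with 5.29, 8.15, 11.1 and 6.92 CPM in hydrogel, against 0.225, 1.05, 0.484 and 0.925 CPM in liquid. Its groups did not overlap (3.55 ± 0.40, 11.7-fold, adjusted p = 0.000408). Fnip2, a partner of folliculin, had 108, 174, 209 and 142 CPM in hydrogel, against 29.4, 50.4, 28.9 and 28.9 CPM in liquid (2.20 ± 0.24, 4.60-fold, adjusted p = 0.000351), also without overlap, and its paralog Fnip1 was 1.42-fold higher. Tfec, the remaining MiT/TFE family member, had 42.3, 45.1, 40.8 and 41.9 CPM in hydrogel, against 24.9, 25.3, 24.4 and 25.5 CPM in liquid. Its libraries were tightly grouped in each culture, hydrogel 1 and liquid 2 included (0.77 ± 0.06, 1.70-fold, adjusted p = 0.000139). The other 2 higher genes were Lamtor3 and Rptor, and the 4 lower ones were Lamtor2, Lamtor4, Rraga and Rragb, with log2 fold changes of −0.74 to −0.31, all 6 named after their values were seen. Folliculin itself, Flcn, had a log2 fold change of −0.16 ± 0.07 (adjusted p = 0.114).

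The genes differed in how far hydrogel 1 and liquid 2 stood from their own group. Over the 37 genes, hydrogel 1 held 0.413 to 1.27 of the mean of hydrogel 2 to 4, with a median of 0.812, and liquid 2 held 0.744 to 3.52 of the mean of liquid 1, 3 and 4, with a median of 1.03. For 9 genes, Tcirg1, Atp6v0d2, Neu1, Sgsh, Psap, Gm2a, Tfeb, Tfe3 and Mitf, hydrogel 1 was under 0.75 and liquid 2 over 1.25, bounds set after the values were seen. Markers of several other lineages lay at the same end. Their medians were 0.492 for hydrogel 1 and 2.63 for liquid 2 over 17 macrophage genes, 0.470 and 2.54 over 8 neutrophil genes, and 0.542 and 2.45 over 6 mast cell and basophil genes. The megakaryocyte markers, with medians of 1.43 and 0.645 over 15 genes, and the erythroid markers, with 1.95 and 0.573 over 5 genes, lay at the opposite end. Atp6v0a1 and Atp6v0a2, with 1.21 and 1.27 for hydrogel 1 and 0.781 and 0.755 for liquid 2, lay beside the megakaryocyte markers. Atp6v1a and Hexa, with 0.811 and 0.944 for hydrogel 1 and 0.965 and 0.831 for liquid 2, lay below 1 on both measures but nearer to it than the 9 genes.

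**Figure D4:**
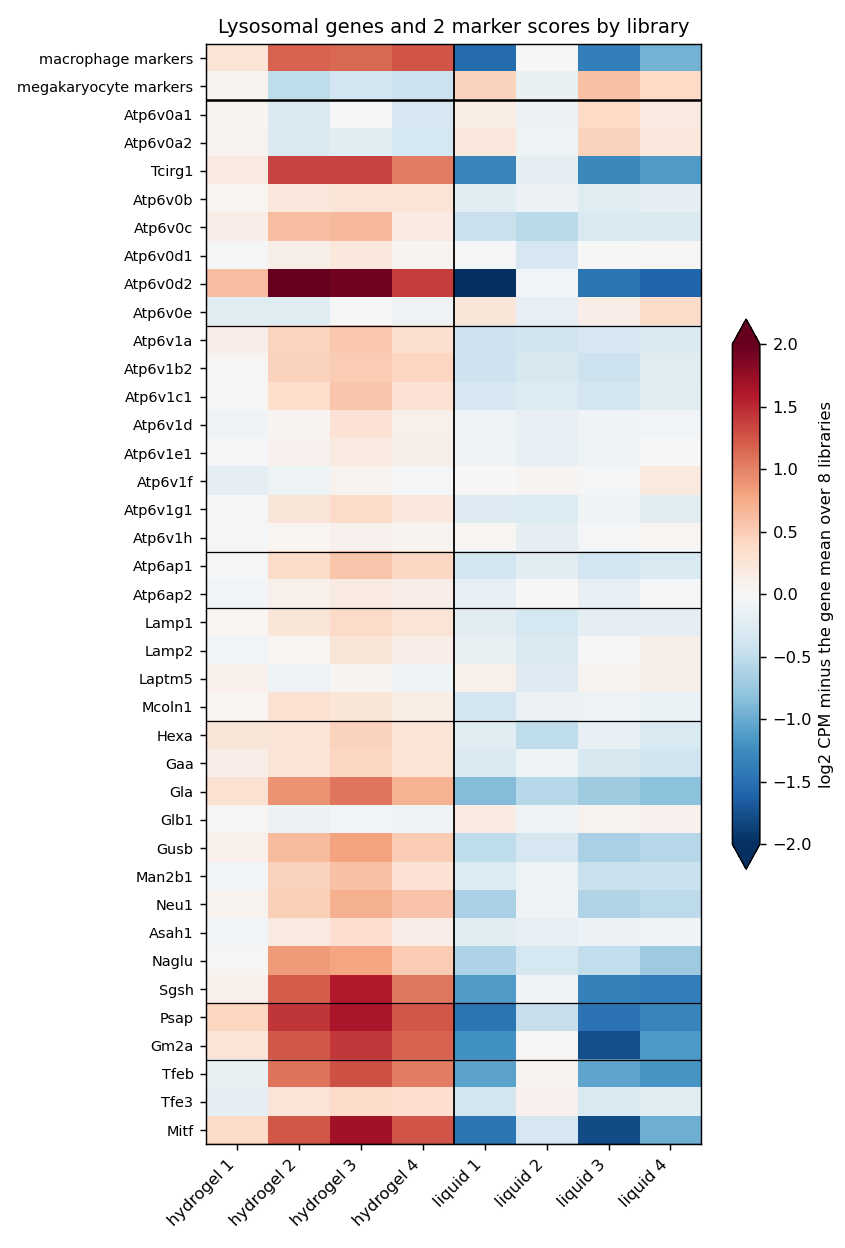
Log2 CPM of the 37 genes in each library relative to the gene's mean over all 8, grouped by role, under the mean of the macrophage and megakaryocyte markers; colours stop at 2 in either direction. Hydrogel 1 and liquid 2 are paler than the other libraries of their culture for Tcirg1, Atp6v0d2, Sgsh, Psap, Gm2a, Tfeb, Mitf and the macrophage markers.

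**Figure D5:**
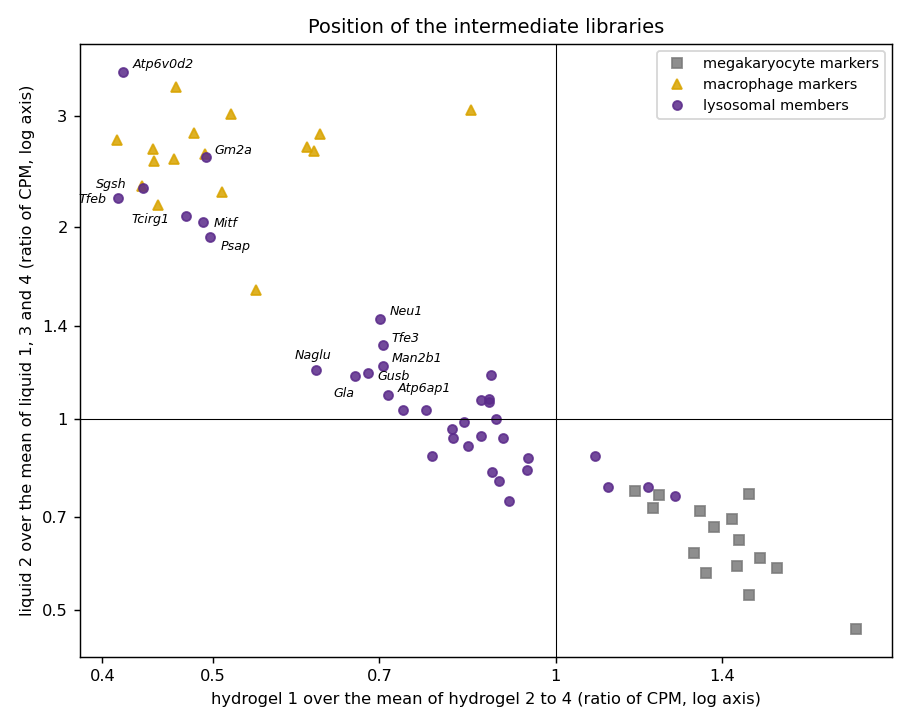
Hydrogel 1 over the mean of the other hydrogel libraries (x) and liquid 2 over the mean of the other liquid libraries (y), ratios of CPM on log axes, for the 37 genes and 2 marker lists; the macrophage marker Marco, at 0 in liquid 2, cannot be drawn. Atp6v0d2, Gm2a, Sgsh, Tfeb, Tcirg1, Mitf and Psap lie among or beside the macrophage markers, and most other genes lie closer to 1.

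The macrophage markers moved with the culture, and the result depended on whether they were taken into account. Csf1r, the receptor for the macrophage growth factor, was 4.23-fold higher (adjusted p = 0.00268), whereas C1qa of complement, at 2.16 to 4.97 CPM in hydrogel and 1.21 to 5.36 CPM in liquid, did not pass (adjusted p = 0.495). The markers' mean centred log2 CPM was 0.27, 1.18, 1.15 and 1.26 in hydrogel, against −1.54, −0.01, −1.37 and −0.94 in liquid. This score shared 78.4% of its variance with culture, which raised the variance of the culture term 4.63-fold. With the score as a covariate in edgeR, 1 of the 37 genes was higher and 0 lower, where 2.43% of all tested genes were higher and 2.12% lower, and the median log2 fold change of the 37 was 0.23. The gene that passed was Hexa (0.84, adjusted p = 0.0162). Gla (0.92, adjusted p = 0.0526) and Psap (0.84, adjusted p = 0.0913) missed the threshold, Tfeb and Tfe3 turned to −0.21 (adjusted p = 0.791) and −0.31 (adjusted p = 0.3), and Atp6v0d2 stood at 0.32 (adjusted p = 0.765). Outside the 37 genes, Tfec (0.72, adjusted p = 0.0177) and Fnip2 (1.08, adjusted p = 0.0374) stayed higher, while Rragd had 1.93 (adjusted p = 0.0635). In these 8 libraries the macrophage markers and the culture largely cannot be told apart.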

How the data were processed

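The authors deposited 1 table of raw read counts per gene, whole numbers with no normalization, for 8 libraries of polyA RNA made with a stranded kit. The submitters' processing notes name STAR 2.7.10b, HTSeq 0.13.5 and bcl2fastq, and build GRCm39. Neither the annotation release nor the strand setting of the counting is given there, so genes that overlap an opposite-strand gene are uncertain. That applies to 7 of the 37 genes, and apart from Grtp1 (Lamp1) their partners had at most 172 counts. The series' design text calls the 4 libraries of a culture independent biological replicates, and no 2 libraries held identical values.

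Symbols and exon lengths came from GENCODE M21 by gene identifier (26534 of 27679 matched, 1145 did not), and 2 text lines naming no gene were dropped. After filterByExpr (13845 genes kept) and TMM scaling, cultures were compared in edgeR 4.0.16 under R 4.3.3 (quasi-likelihood test, culture as the only term, Benjamini-Hochberg, threshold 0.05). Each SE is the log2 fold change over the square root of F, CPM are TMM-scaled, and RPKM divide them by exon length. Promoters came from RefSeq (GRCm38.p6); no coordinate of the count table is used. The macrophage score is the mean over 17 tested markers of centred log2 CPM (prior count 2). Alternatives were other scalings, filters and thresholds, DESeq2 1.42.0, limma-voom (3.58.1), a replicate block, omission of libraries and the macrophage covariate. The edgeR steps were tested on simulated counts; the bound set on recovery of 4-fold changes was first missed over all genes and was then applied to genes of at least 2 CPM, so calls at lower levels are less well covered.

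The 37 genes and all other lists were chosen with earlier results of these data known. Named were all 37 genes, up to 4 passing genes of each added list with the smallest adjusted p, and markers beside a result.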

Additional observations from a re-analysis of the deposited data

Results flagged for a closer look

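In 9 of 78 sets of 4 libraries (37 genes and 2 isoform shares in each culture), 1 library stood farther from the other 3 than Dixon's 95% limit allows; chance gives about 1 in 20. Of the 9, 7 concerned liquid 2. It was high for Psap (1813 CPM, others 898 to 1009), Tcirg1 (50.4 CPM, others 22.9 to 26.2), Sgsh (6.97 CPM, others 2.83 to 3.34), Tfeb (10.6 CPM, others 4.49 to 4.86) and the Tcirg1 share of the a subunit transcripts (9.80%, others 3.34 to 4.41%). It was low for Lamp1 (693 CPM, others 763 to 770) and Laptm5 (995 CPM, others 1254 to 1293). The other flags were Hexa in hydrogel 3 (609 CPM, others 526 to 535) and Mcoln1 in liquid 1 (24.1 CPM, others 28.8 to 29.4). Summed markers were also highest of the liquid libraries in liquid 2 for macrophages (1726 CPM), neutrophils (1221 CPM), mast cells and basophils (207 CPM) and dendritic cells (128 CPM), the last 3 being the highest of all 8 libraries. The part of these cells in the values was not tested.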

How the results depend on the processing

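Of the 26 called genes, 22 kept their call in all 8 omissions of 1 library; the others were Atp6v0a2, Tfe3, Asah1 and Mcoln1. Omitting 1 library gave 22 to 28 higher and 0 to 3 lower genes of the 37 (median 0.50 to 0.59), and 1476 to 2529 higher and 1224 to 2446 lower among all genes. The differences in share ranged over 13.96 to 19.05 points for Tcirg1 and 10.27 to 14.22 for Atp6v0d2, each with exact p = 0.05714, the smallest 3 against 4 allows. Without hydrogel 1 and liquid 2 they were 20.5 and 15.6 points (exact p = 0.1, again the smallest), 3 of the 37 were lower, and the neutrophil marker median, −0.45 with all libraries, was 0.22. The erythroid marker median, −0.16 with all libraries, ranged from −0.47 (without hydrogel 1) to 0.0035 (without hydrogel 4).

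Lower genes among the 37 numbered 2 with upper-quartile scaling, where the median of the mTORC1 list, 0.04 as reported, was −0.016 and all genes split 1755 higher to 2492 lower, and 0 at an adjusted p under 0.01, where 1180 of all genes were higher and 911 lower. With library totals alone the split was 2280 to 1513. DESeq2 called 25 higher and 1 lower of the 37, beside 16.8% and 15.8% of all genes. Tfe3 also lost its call with upper-quartile scaling (adjusted p = 0.0705), totals alone (0.0603) and a filter of 1 CPM in 4 libraries (0.0502).

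The labels do not say whether same-numbered libraries were paired. In their deviations, same-numbered libraries correlated at −0.134 to 0.33. Differently numbered ones reached −0.546 (hydrogel 1 with liquid 2) and 0.438 (hydrogel 1 with liquid 3). With 4 libraries a culture, these values cannot settle whether the libraries were paired. With the replicate block, 3 of the 37 were lower, Atp6v0a1 and Atp6v0e being added, 2193 of all genes were higher and 2045 lower, and the share differences of 15.7 and 12.2 points had exact p = 0.125, the smallest 4 pairs allow.

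With the macrophage covariate, 337 genes were higher and 293 lower in all, and 1 higher and 0 lower of the 37. Of genes called without the covariate, direction turned for Atp6v0a2 (0.23), Tfeb (−0.21), Tfe3 (−0.31), Igf2r (−0.076), Itga2b (0.11) and Itgb3 (0.37). None of these passed with it (adjusted p of 0.284 or more). Direction turned as well for Atp6v0a1 (0.23), Atp6ap2 (−0.084), Glb1 (0.15) and Laptm5 (0.40), which passed in neither fit (adjusted p with the covariate of 0.171 or more). It also turned for the medians of MiT/TFE (−0.21), assembly (−0.039), megakaryocyte (0.23), osteoclast (−0.0725) and erythroid (1.27) genes. The cause of these changes was not tested. Mrc1 (−0.55), C1qa (−1.85) and the macrophage median (−0.11) turned too. The score is the mean of the macrophage markers, so a turn among them follows from its construction and is no separate result. With 4 libraries a culture, small differences such as those of Atp6v1h and Laptm5 were not detectable beyond the spread.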
